A study of Mus musculus with 6 samples.

Results

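The 39 genes described here encode chains of cytokine receptors in the mouse. They were taken as a list by name, with no threshold on measured values, and each gene was read from 1 probe set, the one annotated to that gene alone with the highest mean signal over the 6 arrays. Of the 39 genes, 36 had such a probe set, among 18193 genes that could be read in the same way, and Il2rg, Il11ra1 and Il1rl1 were not analysed here. The arrays were made from bone marrow cells of mice, sorted as GFP+Lin-c-Kit+Sca-1+ cells, the gate in which haematopoietic stem cells lie. There were 3 groups of 2 arrays. The vector group held cells carrying an empty GFP vector, the BCR/ABL group held cells expressing BCR/ABL, the fusion kinase of chronic myeloid leukaemia (CML), and the imatinib group held BCR/ABL cells from CML mice given imatinib, an inhibitor of that kinase. GFP marked the sorted cells of all 3 groups. The sources used here give no strain, age, dose or time of treatment, and do not say if arrays of 1 group hold cells of different mice. P-values therefore measure the spread between these arrays, which may be technical.

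Levels are given as log2(signal + 16), quantile normalised on that log2 scale. A difference of 1 is about a doubling wherever the signal is well above 16, and a level of 4 is a signal of 0. The constant shrinks the differences of genes with a low signal. On each array 3 or 4 of the 36 genes had a signal below 16. Il9r and Osmr were below 16 on all 6 arrays and 31 genes on none. The median difference between the 2 arrays of a group over the 36 genes was 0.52 for vector, 0.16 for BCR/ABL and 0.38 for imatinib. Of the 9 measured genes of the list that marks the sorted gate, Kit, Flt3 and Cd34 among them, none was below 16 on any array. The same held for 12 of 12 granulocyte genes, although the cells were sorted as lineage negative. Genes on the lists of other lineages were also detected. Signals were 82.0 to 4196 for Ebf1, on the B cell list, on the vector and untreated BCR/ABL arrays. For Gata1, on the list of red cell genes, they were 1430 to 2088 on all 6. Pax5 of B cells and Hba-a1 of red cells were below 16 on every array. In such bulk samples fewer cells of a type and less RNA per cell cannot be told apart.

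Most cytokine receptors have no catalytic activity of their own. Chains of the haematopoietic cytokine family pair on ligand binding and bring together JAK kinases, which phosphorylate STAT factors, and a few shared chains (the common beta chain, the common gamma chain and gp130) serve many ligands. Receptors of the IL-1, IL-17 and TNF groups signal instead through adaptor proteins to NF-kappaB, and BCR/ABL is known to activate STAT5 without a cytokine.

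Between BCR/ABL and vector cells, the receptor genes differed in both directions. The genes of the IL-1 and IL-18 receptors and the common beta chain genes Csf2rb and Csf2rb2 were higher in both BCR/ABL arrays, apart from Il1r1, and Il6st (gp130), Il6ra and most interferon and IL-10 receptor genes were lower. No member passed an adjusted p of 0.05 (limma, Benjamini-Hochberg over 35877 probe sets), a threshold that 0.0613% of all probe sets passed. At an unadjusted p under 0.05, 6 of 36 members (16.7%) were higher, against 7.16% of all genes, and 3 (8.33%) lower, against 5.55%. Both BCR/ABL arrays lay above both vector arrays for 7 members (19.4%), against 23.9% of all genes, and below them for 11 (30.6%), against 20.1%. Among genes above the median level of all probe sets, where 29 of the 36 members lie, the shares were 26.2% and 22.6%. With arrays scaled to their medians instead, 8 members were higher and 4 lower, against 43.0% and 7.78% of all genes. The median log2 change was -0.05 over the members and 0.01 over all genes.

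**Figure D1:**
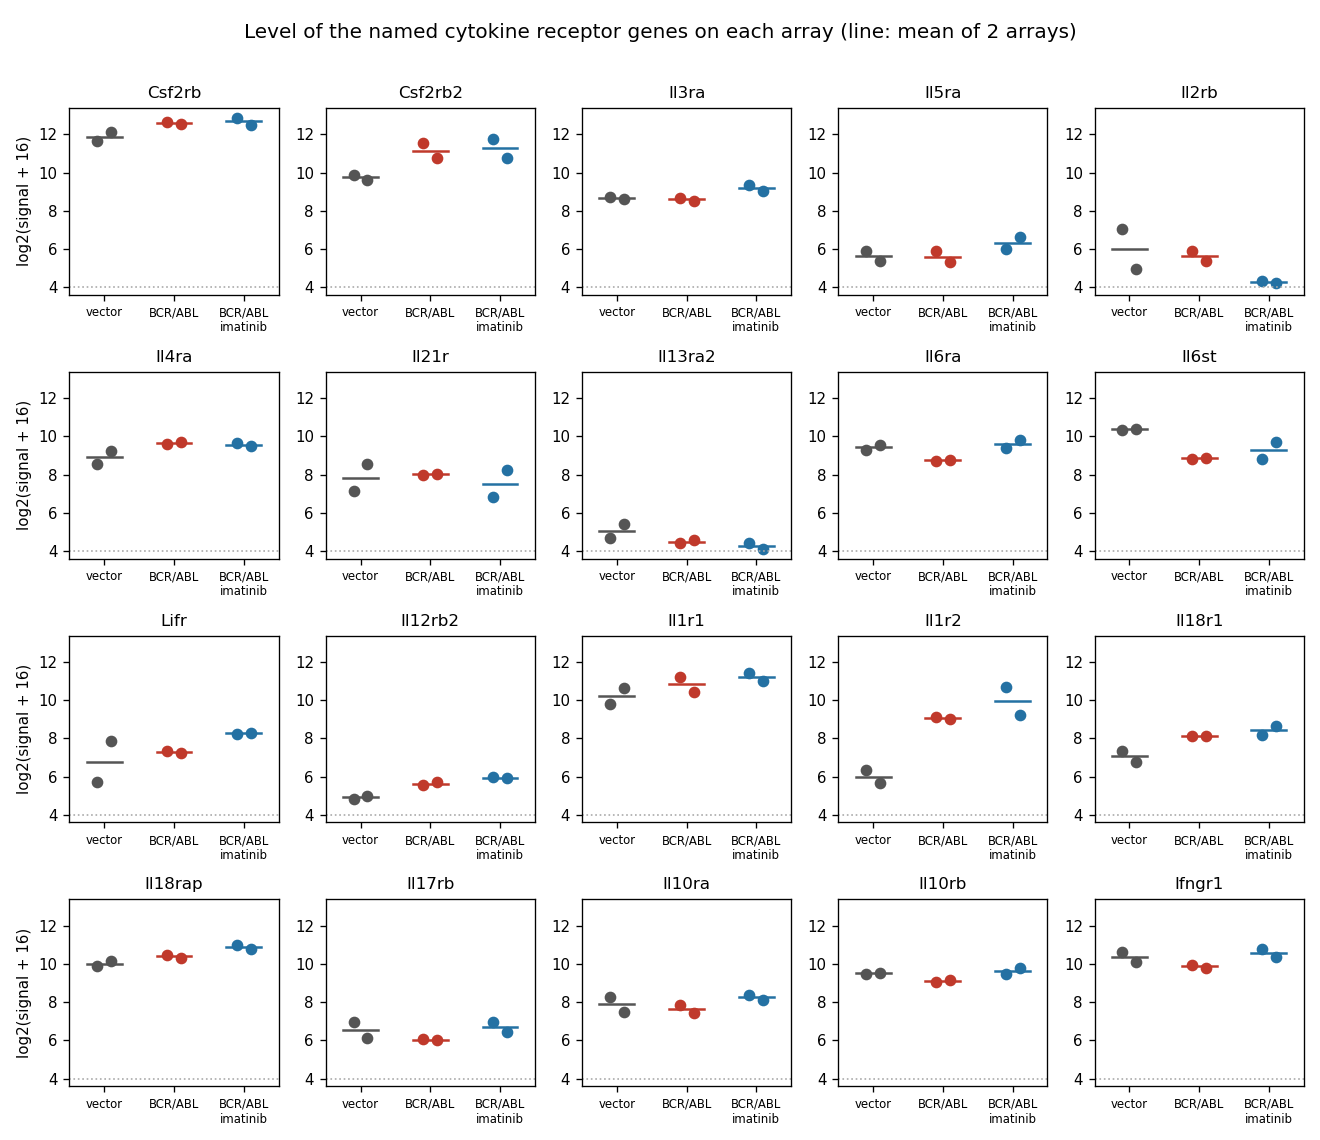
Level of each of the 20 receptor genes with the largest changes, as log2(signal + 16), on the 2 arrays of each group. Points are arrays, the short line is the mean of 2 arrays and the dotted line marks a signal of 0. Il1r2 lies at 5.64 and 6.37 in vector cells and at 9.02 or above on the other 4 arrays.

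Promoter sequence is shown for 4 genes, Il1r2, Csf2rb2 and Il12rb2 because they were higher in both BCR/ABL arrays and hold the motif described next, and Il6st because it had the largest difference in the other direction. Each is the 250 bases before the gene's start, on the gene's own strand, from RefSeq (GRCm38.p6), at chr1:40085843-40086092 (plus strand) for Il1r2, chr15:78305722-78305971 (minus) for Csf2rb2, chr6:67376189-67376438 (minus) for Il12rb2 and chr13:112463820-112464069 (plus) for Il6st. Capitals mark TTCNNNGAA, the palindromic form of sequence that STAT5 is known to bind, which reads the same form on both strands.
Il1r2: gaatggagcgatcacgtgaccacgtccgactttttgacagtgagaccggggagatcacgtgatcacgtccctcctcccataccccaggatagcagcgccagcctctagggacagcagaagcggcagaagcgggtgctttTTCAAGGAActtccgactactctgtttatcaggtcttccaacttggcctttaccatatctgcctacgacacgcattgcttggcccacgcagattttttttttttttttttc
Csf2rb2: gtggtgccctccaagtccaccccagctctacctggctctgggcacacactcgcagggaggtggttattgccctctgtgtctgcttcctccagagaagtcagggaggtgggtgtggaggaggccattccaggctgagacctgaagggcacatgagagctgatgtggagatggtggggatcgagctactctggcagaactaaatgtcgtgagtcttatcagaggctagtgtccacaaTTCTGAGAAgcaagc
Il12rb2: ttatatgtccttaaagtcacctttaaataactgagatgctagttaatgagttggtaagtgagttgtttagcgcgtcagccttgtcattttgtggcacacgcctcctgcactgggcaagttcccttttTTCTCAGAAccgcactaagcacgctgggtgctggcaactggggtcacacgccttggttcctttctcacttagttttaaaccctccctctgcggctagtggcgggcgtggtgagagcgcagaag
Il6st: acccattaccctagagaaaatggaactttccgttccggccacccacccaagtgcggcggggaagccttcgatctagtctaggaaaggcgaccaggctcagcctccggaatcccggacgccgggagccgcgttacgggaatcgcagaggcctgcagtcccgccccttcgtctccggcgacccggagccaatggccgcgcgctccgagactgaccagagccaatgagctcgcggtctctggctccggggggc
A window in the RefSeq promoter table was matched for 29 of the 36 measured members. Over windows of 300 bases, from 250 before to 50 after the start, 8 of 29 members (27.6%) held TTCNNNGAA at least once, against 2582 of 27025 genes (9.55%). With positions counted from the gene's start, the match began at -111 in Il1r2 (TTCAAGGAA), at -15 in Csf2rb2 (TTCTGAGAA) and at -123 in Il12rb2 (TTCTCAGAA). Il18r1 held the form at -219 and at -152 (TTCTGGGAA and TTCCCAGAA). The other genes with a match were Ifnar1, Ifnar2, Tnfrsf1a and Tnfrsf1b. Of the 6 members with a window that were higher in both BCR/ABL arrays, 4 held the form. It was found in 1 of the 8 that were lower and 3 of the 15 whose groups overlapped. These 4 genes and this grouping were chosen after their values were seen, and a match is a description of the letters, not a site.

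The IL-1 and IL-18 receptor genes held the largest difference. Il1r2 encodes the decoy receptor that binds IL-1 without signalling. Its deposited signal was 74.6 and 33.3 in vector cells, 535 and 494 in BCR/ABL cells, and 1672 and 620 in imatinib cells, or 6.37 and 5.64, 9.13 and 9.02, and 10.72 and 9.25 on the log2 scale. All 4 arrays of BCR/ABL cells, treated or not, lay above both vector arrays. The log2 change from vector to BCR/ABL was 3.07 ± 0.52 (SE, n = 2 against 2; limma, adjusted p = 0.165). It passed the threshold under 3 other settings. The adjusted p was 0.0441 and 0.0432 (limma) when probe sets of low signal (below the 30th or 50th percentile) were left out. It was 0.0074 when arrays were scaled to their medians instead. Under the same 3 settings the adjusted p of Hdc, a mast cell gene, fell from 0.0236 to 0.00153, 0.00143 and 0.000138 (limma). The share of all probe sets that passed under them is not given here. Il1r2 did not pass without the first or the second BCR/ABL array.

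Il18r1, the ligand-binding chain for IL-18, was at 7.33 and 6.79 for vector, 8.15 and 8.12 for BCR/ABL and 8.17 and 8.67 for imatinib cells, with a change from vector to BCR/ABL of 1.07 ± 0.34 (SE; limma, adjusted p = 0.354). Il18rap, its signalling partner, was at 9.88 and 10.17, 10.48 and 10.33, and 10.99 and 10.81, with a change of 0.38 ± 0.16 (SE; limma, adjusted p = 0.439) and of 1.23 on its other probe set. For both genes the BCR/ABL arrays did not overlap the vector arrays. Il1r1, the signalling receptor for IL-1, was at 9.78 and 10.65, 11.22 and 10.44, and 11.45 and 11.03, and its vector and BCR/ABL arrays overlapped (change 0.61 ± 0.37, SE; limma, adjusted p = 0.589). Its other probe set gave 0.26, and -0.01 for imatinib against vector, but had a signal below 16 on all 6 arrays. These genes lie in 1 cluster on chromosome 1, in the order Il1r2, Il1r1, Il1rl2, Il1rl1, Il18r1, Il18rap (RefSeq, GRCm38.p6). Il1rl2, which encodes a receptor for other IL-1 family ligands and was not a member, differed by 0.27, and the flanking genes Map4k4, Slc9a4 and Slc9a2 by -0.22, -0.10 and -0.03 (limma, adjusted p of 0.479 to 0.981).

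**Figure D2:**
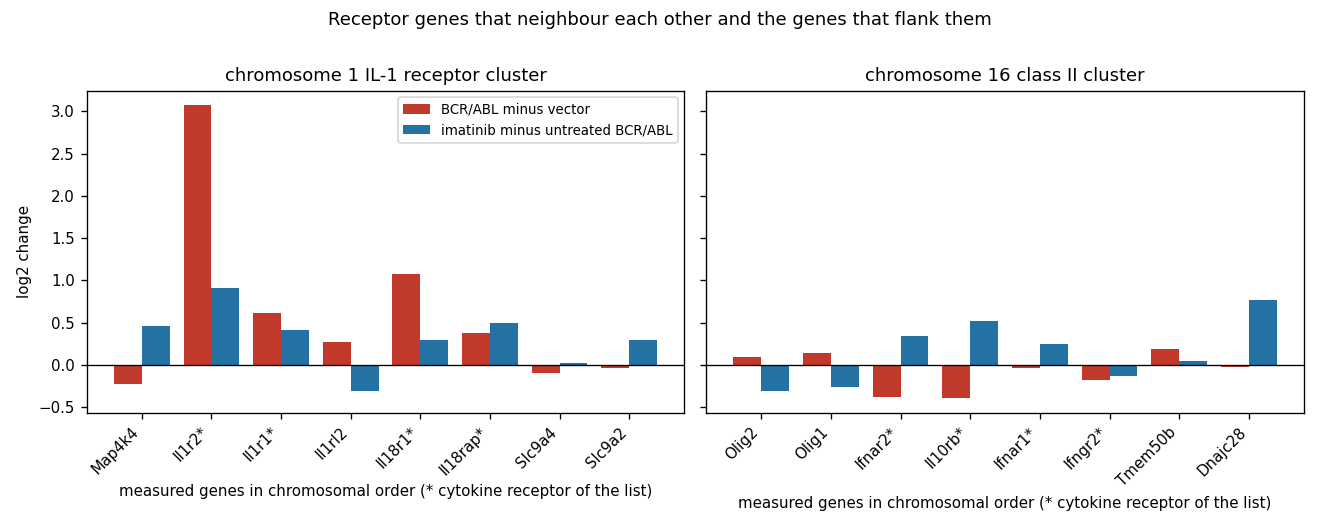
Log2 change of receptor genes that neighbour each other on chromosomes 1 and 16 and of the genes that flank them, in chromosomal order, for BCR/ABL minus vector (red bars) and imatinib minus untreated BCR/ABL (blue bars). On chromosome 1 the red bar of Il1r2 reaches 3.07 and those of the flanking genes lie between -0.22 and -0.03.

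The common beta chain is the signalling subunit for IL-3, IL-5 and GM-CSF, and in the mouse the neighbouring gene Csf2rb2 encodes a second form used by IL-3 alone. Csf2rb was at 11.65 and 12.12 for vector, 12.67 and 12.55 for BCR/ABL and 12.89 and 12.48 for imatinib cells, a change of 0.72 ± 0.19 between the first 2 groups (SE; limma, adjusted p = 0.308). Csf2rb2 was at 9.88 and 9.61, 11.55 and 10.75, and 11.76 and 10.79, a change of 1.40 ± 0.39 (SE; limma, adjusted p = 0.312). Both vector arrays were the lowest of the 6 for each gene, and imatinib cells differed from untreated BCR/ABL cells by 0.07 and 0.13. The second Csf2rb probe set gave 0.94. A probe set annotated to both genes gave 1.33. How far the probe sets of these related genes also detect the other's transcript was not tested. The flanking genes Ncf4 and Tex33 differed by 0.13 and -0.45.

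For the alpha chains that give the common beta chain its ligand, the vector and BCR/ABL arrays overlapped. Il3ra, for IL-3, was at 8.72 and 8.62 for vector, 8.68 and 8.53 for BCR/ABL and 9.35 and 9.05 for imatinib cells. Only the imatinib arrays stood apart, at 0.59 ± 0.21 above untreated BCR/ABL (SE; limma, adjusted p = 0.283). Il5ra, for IL-5, was at 5.91 and 5.38, 5.87 and 5.30, and 5.98 and 6.61, which is 0.71 ± 0.42 higher with imatinib (SE; limma, adjusted p = 0.528). Csf2ra, for GM-CSF, had vector arrays 1.30 apart, at 10.36 and 9.06, on either side of the other 4 arrays, and its 2 probe sets differed in sign.

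Among the gp130 and IL-12 receptor genes, Il6st was lower in BCR/ABL cells. gp130 is the shared signalling chain for IL-6, IL-11, LIF and oncostatin M. Il6st was at 10.34 and 10.41 for vector, 8.83 and 8.89 for BCR/ABL and 8.81 and 9.73 for imatinib cells. The change from vector to BCR/ABL was -1.51 ± 0.30 (SE; limma, adjusted p = 0.219), and 4 of its 4 probe sets were lower, by -1.51 to -0.59 (-0.93 when averaged). The imatinib arrays were 0.92 apart, 1 level with untreated BCR/ABL cells and 1 between the groups. Il6ra, the IL-6 binding chain, was at 9.31 and 9.57, 8.74 and 8.76, and 9.40 and 9.83. Both BCR/ABL arrays were the lowest of the 6, by -0.69 ± 0.21 against vector (SE; limma, adjusted p = 0.350), and imatinib cells were 0.87 ± 0.21 higher than untreated ones (SE; limma, adjusted p = 0.168).

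Other chains of that family had single arrays that stood apart or low signals. Lifr, which pairs with gp130 for LIF, was at 5.72 and 7.85 for vector, 7.36 and 7.22 for BCR/ABL and 8.26 and 8.29 for imatinib cells, and without the first vector array the difference of BCR/ABL from vector turned from 0.50 to -0.57. Il12rb2, the signalling chain for IL-12, was at 4.85 and 4.98, 5.54 and 5.70, and 6.0 and 5.91. Its groups did not overlap, with a change of 0.70 ± 0.28 from vector to BCR/ABL (SE; limma, adjusted p = 0.424), but its signal was below 16 on both vector arrays. Il12rb1, its partner, lay between 6.80 and 7.52, Il27ra, for IL-27, between 8.76 and 9.69, and Osmr, for oncostatin M, between 4.08 and 4.56. Those 3 genes differed by 0.26, -0.17 and -0.25 from vector to BCR/ABL.

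Il4ra, the chain shared by the IL-4 and IL-13 receptors, was at 8.55 and 9.26 for vector, 9.59 and 9.71 for BCR/ABL and 9.66 and 9.49 for imatinib cells. All 4 BCR/ABL arrays lay above both vector arrays, by 0.75 ± 0.26 for the untreated ones (SE; limma, adjusted p = 0.388), and 3 of 3 probe sets were higher, by 0.10 to 1.06. Il21r, its neighbour on chromosome 7 and the receptor for IL-21, was at 7.12 and 8.56, 7.99 and 8.03, and 6.83 and 8.22. The spread within its vector and imatinib groups exceeded any difference between groups, and without the first imatinib array the difference of imatinib from untreated cells turned from -0.48 to 0.21. Il13ra2, the IL-13 decoy receptor, had a signal below 16 on 5 arrays and differed by -0.55 ± 0.27 from vector to BCR/ABL (SE; limma, adjusted p = 0.502). Il13ra1, for IL-13, lay between 6.14 and 8.19, the vector arrays holding both ends. Il15ra, for IL-15, lay between 7.59 and 8.22, and Il9r, for IL-9, between 4.01 and 4.64.

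Il2rb, the chain shared by the IL-2 and IL-15 receptors of lymphocytes, was at 7.07 and 4.96 for vector, 5.87 and 5.38 for BCR/ABL and 4.33 and 4.21 for imatinib cells. Its signal was below 16 on 3 arrays, 1 of vector and both of imatinib. The first vector array was the highest and both imatinib arrays the lowest, a difference of -1.35 ± 0.67 from untreated BCR/ABL (SE; limma, adjusted p = 0.434). Its other probe set was below 16 on all 6 arrays. The summed signal of the 7 measured T and NK cell genes was 1046.5 on the first vector array and 52.0 to 124 on the others, where Cd4 and Ncr1 were below 16. It was 52.0 and 92.3 in untreated BCR/ABL cells and 91.6 and 113 in imatinib cells. Between those groups 5 of the 7 genes were positive and 2 negative, with a median of 0.14. The part of these genes in the Il2rb differences was not tested.

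The class II family holds the receptors for interferons and IL-10. From vector to BCR/ABL its 6 genes were negative, with a median of -0.30 against 0.01 for all genes, and 4 (all lower) did not overlap, where 20.1% of all genes were lower. With arrays scaled to their medians, which moved the median of all genes to 0.20, only Il10rb did not overlap, 4 of the 6 were negative, with a family median of -0.13, and Ifngr2 and Ifnar1 were positive. With imatinib 5 of the 6 were positive and did not overlap, where 24.8% of all genes were higher, with a median of 0.43. With arrays scaled to their medians 4 were positive, 1 did not overlap and the median was 0.12. Ifngr1, the interferon gamma binding chain, was at 10.65 and 10.12 for vector, 9.94 and 9.82 for BCR/ABL and 10.78 and 10.40 for imatinib cells. Its difference was -0.50 ± 0.23 in BCR/ABL against vector (SE; limma, adjusted p = 0.472) and 0.71 ± 0.23 in imatinib against untreated cells (SE; limma, adjusted p = 0.240). Il10rb, the chain shared by IL-10 and its relatives, was at 9.47 and 9.55, 9.07 and 9.16, and 9.47 and 9.81, with differences of -0.40 ± 0.18 and 0.52 ± 0.18 (SE; limma, adjusted p = 0.486 and 0.277). For both genes the untreated BCR/ABL arrays were the lowest of the 6.

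Ifnar2, a type I interferon receptor chain, was at 10.40 and 10.35 for vector, 10.01 and 9.98 for BCR/ABL and 10.41 and 10.27 for imatinib cells. Its differences of -0.38 ± 0.13 and 0.34 ± 0.13 (SE; limma, adjusted p = 0.369 and 0.294) had the same signs on 3 of its 3 probe sets. Ifnar1, the other type I chain, lay between 9.32 and 10.08, the vector arrays holding both ends. Ifngr2, the signalling chain for interferon gamma, was at 9.88 and 9.91, 9.80 and 9.63, and 9.80 and 9.37, and its untreated and imatinib arrays overlapped (-0.13). On its other probe set the imatinib arrays were both higher, by 0.43. Il10ra, the IL-10 binding chain, was at 8.28 and 7.51, 7.88 and 7.46, and 8.40 and 8.11, and was 0.59 ± 0.37 higher with imatinib (SE; limma, adjusted p = 0.550). Its other 2 probe sets were below 16 on 5 and on 6 arrays. Ifnar2, Il10rb, Ifnar1 and Ifngr2 stand next to each other on chromosome 16 in that order, and the flanking genes Olig1 and Tmem50b differed by 0.14 and 0.18 from vector to BCR/ABL and by -0.27 and 0.05 with imatinib. Dnajc28, beyond Tmem50b, differed by -0.03 and then 0.77 (limma, adjusted p = 0.685 for the latter), and Olig2, beyond Olig1, by 0.09 and then -0.31.

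Il17ra, the shared IL-17 receptor chain, was at 10.99 and 11.18 for vector, 10.62 and 10.98 for BCR/ABL and 11.19 and 11.29 for imatinib cells. Imatinib cells were 0.44 ± 0.16 above untreated ones (SE; limma, adjusted p = 0.279). Il17rb, which binds IL-25, was at 6.96 and 6.13, 6.10 and 6.0, and 6.99 and 6.42, and was 0.66 ± 0.45 higher with imatinib (SE; limma, adjusted p = 0.583). For both, the untreated BCR/ABL arrays were the lowest of the 6 under quantile normalisation. For Il17ra this rested on 10.984 against 10.987. It did not hold for Il17ra under the other scalings or on its other probe set. The groups overlapped for the receptors that work as homodimers. Csf3r, for G-CSF, lay between 8.29 and 9.06 and Epor, for erythropoietin, between 7.42 and 8.48. The TNF receptor genes Tnfrsf1a and Tnfrsf1b lay between 9.60 and 10.20 and between 9.61 and 10.16, and their groups overlapped in all 3 comparisons.

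**Figure D3:**
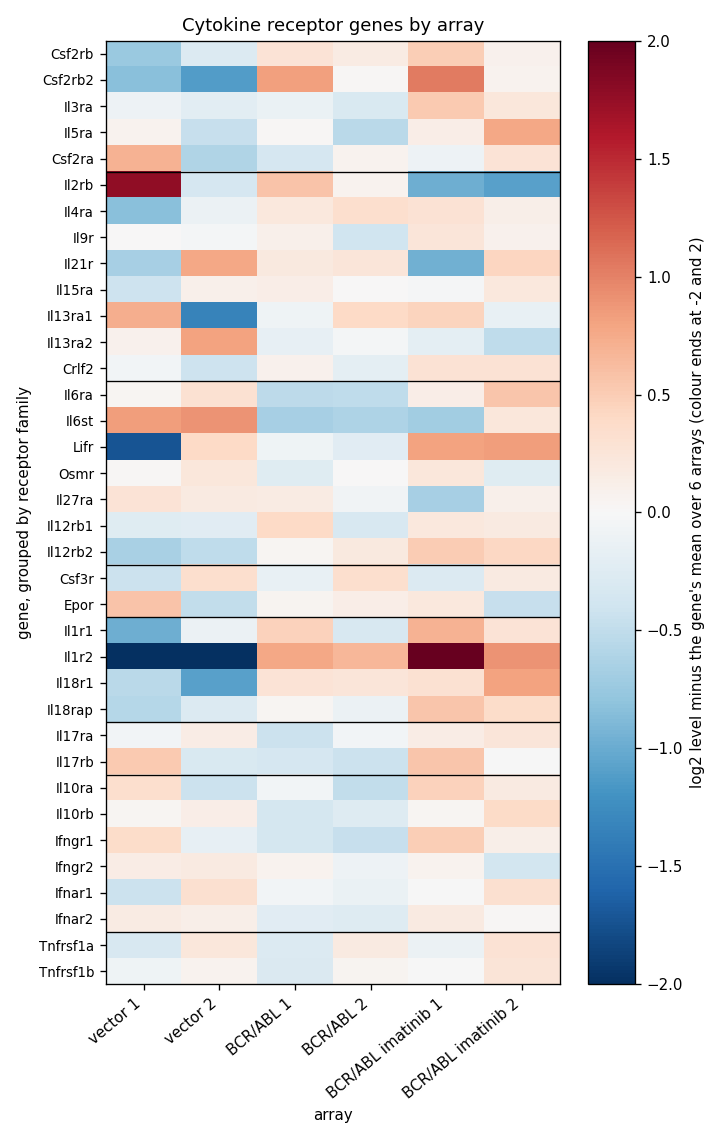
Level of the 36 measured receptor genes on each of the 6 arrays, as the log2 level minus the gene's mean over the arrays, with families separated by lines. Red is above and blue below the gene's mean. The untreated BCR/ABL columns are the lowest of the 6 for Il6ra, Il17ra, Il17rb, Il10rb, Ifngr1 and Ifnar2. The margin for Il17ra is narrow (10.984 against 10.987).

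Imatinib-treated cells were compared with untreated BCR/ABL cells to see which members differed when the inhibitor was given. Most receptor genes had higher values with imatinib under quantile normalisation. Both imatinib arrays lay above both untreated arrays for 16 of 36 members (44.4%), against 24.8% of all genes, and below them for 2 (5.56%), Il2rb and Il13ra2, against 26.7%. Among genes above the median level of all probe sets the shares were 30.1% and 31.7%. The median log2 difference was 0.27 over the members, 27 of them positive, and -0.01 over all genes. No member passed an adjusted p of 0.05 (limma, Benjamini-Hochberg), and 0.0% of the 35877 probe sets did. At an unadjusted p under 0.05, 7 members (19.4%) were higher, against 7.88% of all genes, and 0 lower, against 9.13%.

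The number of members that stood apart depended on how the arrays were scaled to each other. With arrays scaled to their medians, 18 members were positive, and 6 did not overlap on the higher and 5 on the lower side, against 9.23% and 49.9% of all genes, and the median was -0.01 over the members and -0.27 over all genes. The members' median lay 0.26 above that of all genes under that scaling and 0.28 above it under quantile normalisation. Scaling to medians moves all genes of an array alike, so it cannot change this gap from that of the deposited values. Il6ra, Il17rb and Il10rb were lowest in both untreated BCR/ABL arrays under each of the 3 scalings tried. Under quantile normalisation 6 members (16.7%) were lowest in both untreated BCR/ABL arrays, against 9.83% of all genes, and 0 were highest, against 12.4%. With arrays scaled to their medians 3 were lowest, against 2.47% of all genes, and 1 highest, against 30%. With 1 vector or imatinib array left out the first count was 7 to 9, and 12.3% to 15.7% of all genes were lowest.

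The gene list of the sorted gate moved with this comparison. Its 9 measured genes summed to a signal of 14221 and 12419 in untreated BCR/ABL cells, 17312 and 22485 with imatinib, and 11818 and 19419 in vector cells. All 9 were positive with imatinib and 7 did not overlap, where 24.8% of all genes were higher. The part of this list in the receptor differences was not tested.

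**Figure D4:**
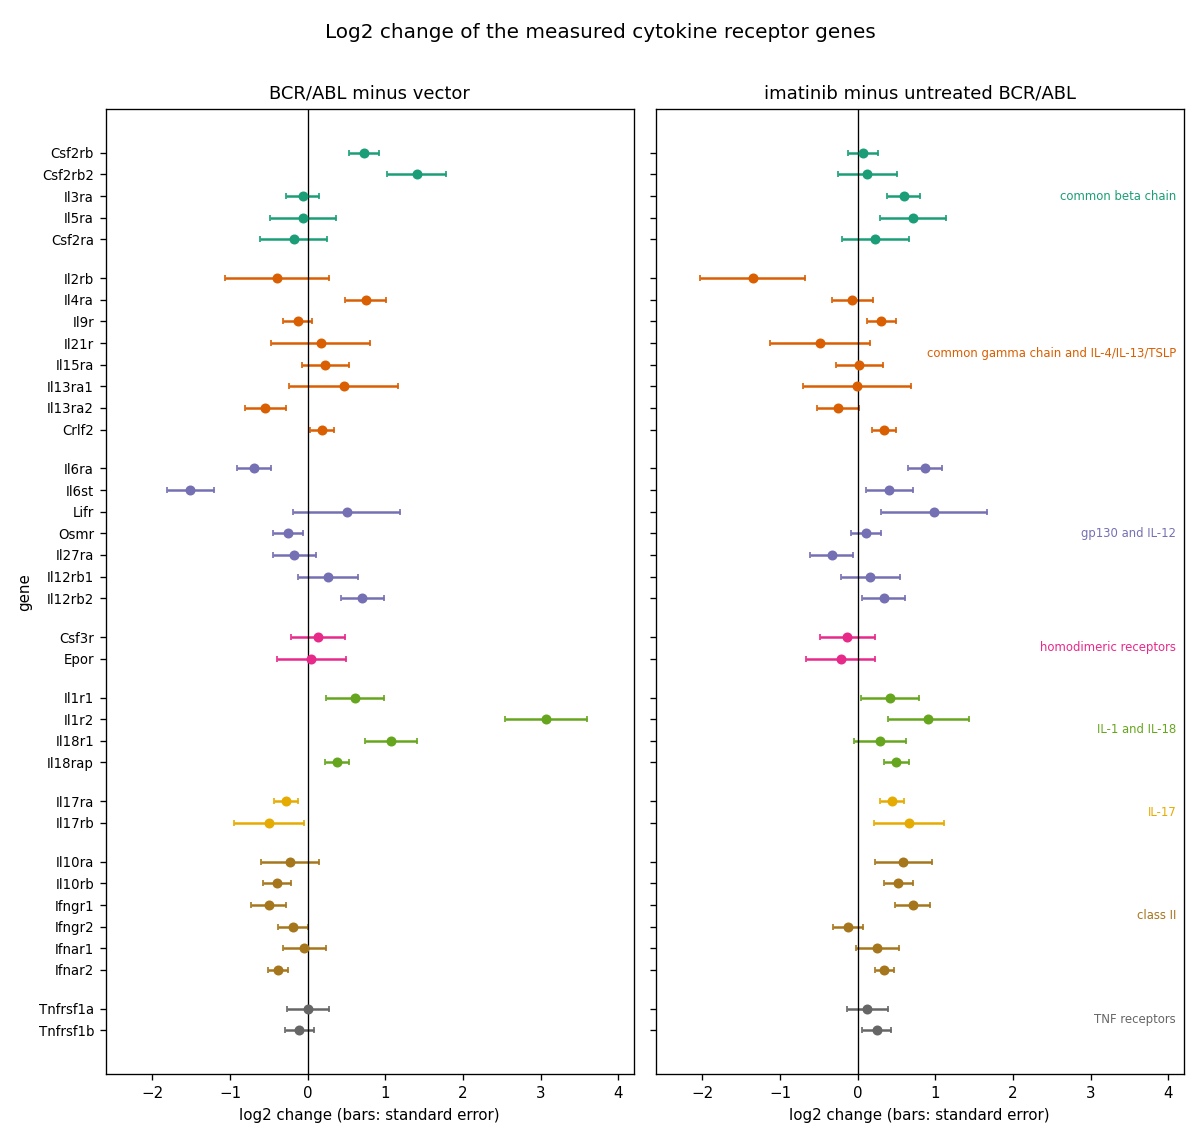
Log2 change of the 36 measured receptor genes, by family, for BCR/ABL minus vector (left) and imatinib minus untreated BCR/ABL (right). Points are changes fitted by limma from 2 arrays a group and bars are standard errors. The points of the class II family lie left of 0 on the left and, for 5 of 6 genes, right of 0 on the right.

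Imatinib-treated BCR/ABL cells were then compared with vector cells, to see which members differed from them under treatment. This comparison shares arrays with both others. The genes of the IL-1 and IL-18 receptors and both common beta chain genes had higher values than in vector. Il1r2 differed from vector by 3.98 ± 0.52 (SE; limma, adjusted p = 0.116), Il18r1 by 1.36 ± 0.34 (adjusted p = 0.209), Il1r1 by 1.03 ± 0.37 (adjusted p = 0.323) and Il18rap by 0.88 ± 0.16 (adjusted p = 0.148), and in each the groups did not overlap. Csf2rb2 differed by 1.53 ± 0.39 (SE; limma, adjusted p = 0.214), Csf2rb by 0.80 ± 0.19 (adjusted p = 0.202) and Il12rb2 by 1.04 ± 0.28 (adjusted p = 0.228). Crlf2, which encodes the TSLP receptor, was at 11.27 and 10.92 for vector, 11.42 and 11.14 for BCR/ABL and 11.62 and 11.62 for imatinib cells, which is 0.52 ± 0.16 above vector (SE; limma, adjusted p = 0.260).

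Il6st had lower values than in vector, by -1.10 ± 0.30 (SE; limma, adjusted p = 0.235). Il2rb had the lowest difference, -1.75 ± 0.67 (SE; limma, adjusted p = 0.342), with the array spread given above, and Lifr was higher by 1.49 ± 0.69 (SE; limma, adjusted p = 0.415) without overlap. Il6ra, Ifngr1, Il10rb and Ifnar2 differed from vector by 0.18, 0.21, 0.13 and -0.04, and their imatinib and vector arrays overlapped. Other probe sets did not overlap for Il10rb (-0.50), Ifnar2 (-0.43) and Il6ra (0.32). A further one of Ifnar2 gave -0.29 with overlap. In all, 15 of 36 members (41.7%) were higher in both imatinib arrays, against 21.9% of all genes, and 5 (13.9%) lower, against 22.3%. No member passed an adjusted p of 0.05, against 0.0446% of all probe sets, and at an unadjusted p under 0.05, 10 (27.8%) were higher, against 9.0% of all genes, and 3 (8.33%) lower, against 7.7%. Il1r2 was past the threshold under 4 of the other settings, with an adjusted p of 0.00393 to 0.0421. Under the same settings that of Hdc fell from 0.0363 to between 0.00071 and 0.00588 (limma).

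Mast cell and basophil genes were higher in BCR/ABL than in vector cells, as were Il1r2, Il18r1, Il18rap, Csf2rb and Csf2rb2. Of the 10 genes on that list, 7 were higher in both imatinib arrays than in untreated ones and 1 lower. The shares of all genes were 24.8% and 26.7%. For Csf2rb and Csf2rb2 the imatinib and untreated arrays overlapped (0.07 and 0.13). They also overlapped for Hdc and Gata2 of that list (0.08 and 0.05). The 10 genes of that list, Hdc, Cpa3 and Fcer1a among them, summed to a signal of 16604 and 11339 for vector, 43029 and 42512 for BCR/ABL and 66046 and 56183 for imatinib cells. All 10 were higher in both BCR/ABL arrays than in vector, against 23.9% of all genes, with a median change of 2.47. Hdc passed the threshold (2.35; limma, adjusted p = 0.0236), but not without the first or second BCR/ABL array (0.490 and 0.258), without the first or second vector array (0.105 and 0.0657) or with a prior without a trend (0.102). Granulocyte genes summed to 81162 and 51134 for vector, 79779 and 91274 for BCR/ABL and 87994 and 92757 for imatinib cells. Of these 12 genes, 7 were higher in both BCR/ABL arrays, against 23.9% of all genes. Of the 6 measured megakaryocyte genes, 5 were higher in both BCR/ABL arrays than in vector (median change 1.15) and 6 in both imatinib arrays (median 1.75), against 23.9% and 21.9% of all genes. They summed to 1410 and 1403 for vector, 2518 and 2223 for BCR/ABL and 4637 and 3843 for imatinib cells. Genes of B cells summed to 23409 and 4932 in vector cells and to at most 2430 on the other arrays. The part of these cells in the receptor differences was not tested.

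The other genes of the pathway were read from lists made by role. Of the 30 measured ligand genes, 2 passed the threshold, both higher in BCR/ABL than in vector cells. Il4, for which Il4ra is the receptor, rose from 5.77 and 5.40 to 10.76 and 10.75, by 5.17 ± 0.34 (SE; limma, adjusted p = 0.0196). Il6, whose receptor chains Il6ra and Il6st had lower values, rose from 5.63 and 5.92 to 11.40 and 10.90, by 5.38 ± 0.46 (SE; limma, adjusted p = 0.0421). Neither was called without the first or the second BCR/ABL array (limma, adjusted p = 0.490 and 0.263 for Il4, 0.624 and 0.309 for Il6), without the second vector array (0.0505 and 0.0693) or with a prior without a trend (0.0568 and 0.104), and Il6 was not called without the first vector array (0.158). With imatinib Il4 was at 8.50 and 7.76 and Il6 at 9.12 and 7.85. Both untreated BCR/ABL arrays were the highest of the 6 for 11 ligand genes, Il1a, Il1b, Il1rn, Il3, Il4, Il6, Il13, Csf2, Lif, Osm and Tnf, and for 0 of the 36 receptor genes, against 12.4% of all genes. With arrays scaled to their medians they were the highest for 1 receptor gene, Il4ra, against 30% of all genes. Lif, the ligand of Lifr, differed by 3.84 from vector to BCR/ABL (limma, adjusted p = 0.194). The largest differences with imatinib were those of Il13 (-3.40; limma, adjusted p = 0.108), Il1b (-3.29, adjusted p = 0.247) and Csf2 (-2.84, adjusted p = 0.120).

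Among the 16 other receptor chains measured, 0 passed the threshold in any comparison (limma), and from vector to BCR/ABL 1 was higher and 4 lower at an unadjusted p under 0.05, which 7.16% and 5.55% of all genes were. Il2ra, the IL-2 receptor alpha chain and a known STAT5 target, was at 5.98 and 5.30 for vector, 10.05 and 8.42 for BCR/ABL and 7.97 and 7.27 for imatinib cells (change to BCR/ABL 3.59, limma, adjusted p = 0.169). Il31ra, for IL-31, was at 9.56 and 9.52, 7.37 and 7.36, and 7.82 and 8.74 (-2.18, adjusted p = 0.144). Il7r, the receptor for the lymphoid cytokine IL-7, was at 11.08 and 10.01, 8.43 and 8.96, and 11.21 and 10.27 (-1.85, adjusted p = 0.289). Flt3, a cytokine receptor kinase of early progenitors, differed by -1.08 and then by 1.36 with imatinib (adjusted p = 0.392 and 0.202). The untreated BCR/ABL arrays were the highest of the 6 for Il2ra and the lowest for Il31ra, Il7r and Flt3. In all they were the highest for 1 and the lowest for 4 of the 16 chains. The shares of all genes were 12.4% and 9.83%.

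Of the 10 JAK and STAT genes measured, 0 passed the threshold in any comparison (limma), and 0 had an unadjusted p under 0.05 from vector to BCR/ABL and 4, all higher, with imatinib, where 7.88% of all genes were higher. Stat2, Tyk2 and Jak1 had the largest differences from vector to BCR/ABL (-0.76, -0.31 and 0.23), and Stat4, Stat3 and Stat5b with imatinib (0.74, 0.58 and 0.49). From vector to BCR/ABL their median change was -0.04, and with imatinib 9 of the 10 were positive with a median of 0.30, against 6 of 10 and 0.03 with arrays scaled to their medians. Among the 14 feedback genes, 0 passed the threshold in any comparison (limma), and from vector to BCR/ABL 4 were higher and 1 lower at an unadjusted p under 0.05, which 7.16% and 5.55% of all genes were. Cish, an inhibitor that STAT5 is known to induce, had the largest difference, at 9.13 and 7.99 for vector, 11.08 and 10.83 for BCR/ABL and 9.25 and 9.12 for imatinib cells (2.39 and then -1.77; limma, adjusted p = 0.138 and 0.139). Socs1, another inhibitor of the same family, had differences of 1.22 and then -1.66, and Socs2, also of that family, of 1.30 and then 0.07. Pias3, an inhibitor of STAT factors, had differences of -0.11 and then 0.60. The 11 adaptor genes had a median of 0.15 from vector to BCR/ABL and of 0.01 with imatinib. Of these, 0 passed the threshold in any comparison (limma), and 2 were higher at an unadjusted p under 0.05 from vector to BCR/ABL, against 7.16% of all genes. Traf3ip2 and Traf2 had differences of -0.89 and 0.68 from vector to BCR/ABL and of 0.63 and -0.64 with imatinib. Myd88, the adaptor of IL-1 receptors, had 0.62 and -0.28, and the kinase gene Irak2 0.15 and 0.44.

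**Figure D5:**
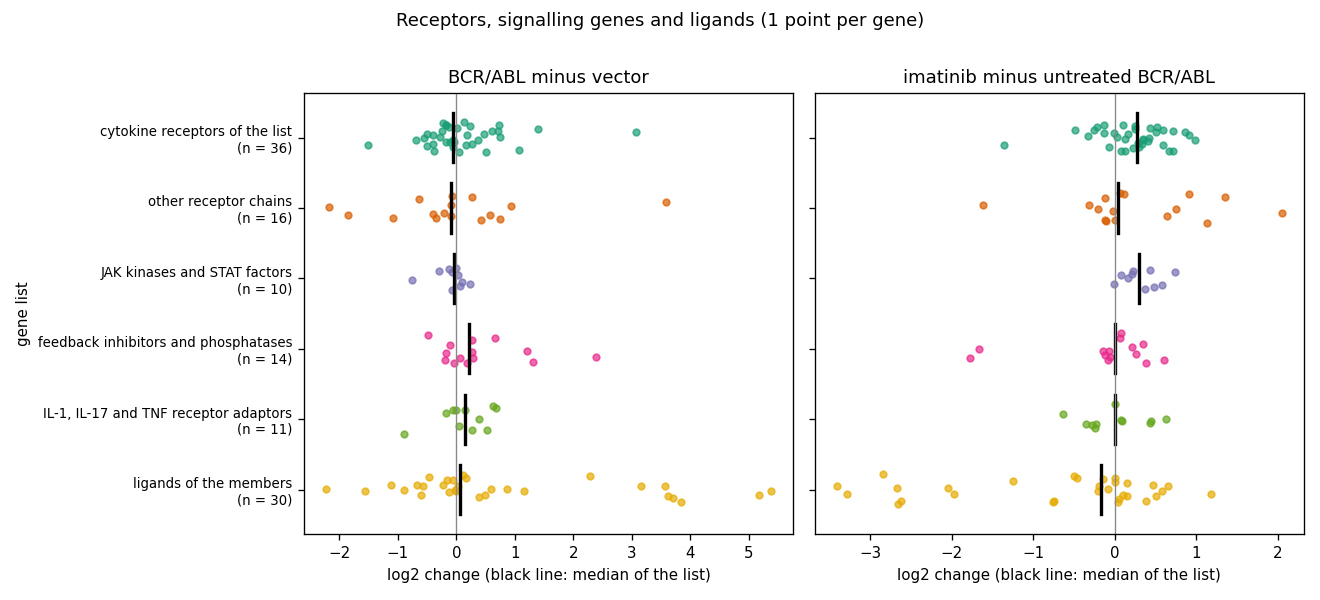
Log2 change of the genes in each list of the pathway, with 1 point per gene, for BCR/ABL minus vector (left) and imatinib minus untreated BCR/ABL (right). The black line is the median of a list. The ligand list holds the largest changes, up to 5.38 on the left and down to -3.40 on the right.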

How the data were processed

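Expression was measured on 6 Affymetrix arrays, 2 per group. The deposited values are linear signal intensities that the authors made with MAS5 in Affymetrix Expression Console, per the submitters' processing notes, with versions not given in the sources used here. Their mean after trimming 2% at each end was 500.002 on every array, and their median lay between 35.6 and 57.2. The series text names a whole-transcript array, while the probe set names are those of the older Mouse Genome 430 2.0 design, whose annotation gave the gene symbols. Of 45101 probe sets, 64 were controls, 34945 had 1 symbol, 932 several and 9160 none.

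The deposited intensities, without controls, were transformed to log2(intensity + 16) and then quantile normalised. limma 3.58.1 in R 4.3.3 fitted the 35877 probe sets with a symbol in 1 model of 3 groups (residual degrees of freedom 3, prior 2.97), two-sided, with Benjamini-Hochberg adjustment. The code was tested on simulated data. Genes were named with full values if past an adjusted p of 0.05 or among the 12 members with the largest changes in either BCR/ABL comparison, and the 3 genes with the largest changes per pathway list in each of those comparisons; others were chosen after their values were seen. The members and lists were chosen with earlier results of these data known. Alternatives were other scalings, low-signal filters, an added constant of 1, averaged probe sets, other priors, a replicate block, only the 4 arrays compared, and each array left out. Only 2 arrays per group limit the precision. Protein sequences were not used here.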

Additional observations from a re-analysis of the deposited data

How the results depend on the processing

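No member passed the threshold in any comparison when any 1 array was left out or with a replicate block. Il1r2 alone passed it elsewhere. The count became 1 for BCR/ABL against vector with the 30th and 50th percentile filters and with array medians. It also became 1 for imatinib against vector with those settings and an added constant of 1. The share of all probe sets that passed under each setting is not given here. The members' median for BCR/ABL against vector was 0.0054 and 0.048 with the filters, 0.15 with array medians (0.20 over all genes) and 0.021 with probe sets averaged. With array medians 4 members were lower, against 7.78% of all genes. For imatinib against untreated cells the median was 0.32 with the constant of 1, 0.32 as deposited, 0.16 averaged and -0.013 with array medians (-0.27 over all genes). With array medians 6 members were higher and 5 lower, against 9.23% and 49.9% of all genes. As deposited 1 was lower, against 21.3% of all genes. With the 50th percentile filter 0 were lower, against 31.7% of the genes kept, and with the 30th 1 was lower. For imatinib against vector the median was 0.12 with array medians and 0.23 as deposited, and 3 were lower with the 50th percentile filter. That filter leaves fewer members to count. The share of all genes lower is not given here for that count or for the 30th percentile filter.

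Leaving out 1 array gave medians of -0.13 to 0.0014, 0.26 to 0.31 and 0.19 to 0.34 in these 3 comparisons. Members without overlap numbered 7 to 14, 16 to 24 and 15 to 22 higher, and 11 to 18, 2 to 8 and 5 to 9 lower. A group of 1 array has fewer ways to overlap, for any gene. The shares of all genes under these settings are not given here, so the counts do not set the receptors apart from other genes. Leaving out 1 array gave 7 to 9 members lowest and 0 to 2 highest in untreated BCR/ABL cells, an alternative chosen after seeing the data. Signs reversed for Lifr in BCR/ABL against vector (-0.57 to 1.58, below 0 without the first vector array), for Il21r in imatinib against untreated cells (-1.19 to 0.21, above 0 without the first imatinib array) and, in imatinib against vector, for Il6ra (-0.035 to 0.39, below 0 without the second imatinib array) and Ifngr1 (-0.061 to 0.47, below 0 without the second vector array); the cause was not tested. With arrays scaled to their medians other signs turned too, and the median of all genes moved with them. For imatinib against untreated cells 18 members were positive, where 27 had been. Csf2rb went from 0.07 to -0.30, Csf2rb2 from 0.13 to -0.24, Crlf2 from 0.34 to -0.03 and Ifnar1 from 0.25 to -0.07. For BCR/ABL against vector 24 members were positive, where 17 had been, and Il27ra went from -0.17 to 0.05. With the replicate block, Il6 had an adjusted p of 0.0584. Deviations of same-numbered arrays from their group means had correlations of -0.0800, 0.160 and 0.146 between groups. With 2 arrays a group both replicate numbers give the same value, so this cannot decide if the arrays were paired. The block changed no member's call. Signals below 16 limit what can be said of Il9r, Osmr, Il13ra2, Il2rb and Il12rb2.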
